A study of Triticum aestivum with 54 samples.

Results

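The 150 probe sets described here are those with much higher signal in the diploid Aegilops longissima (AL) than in the diploid Triticum urartu (TU) whose level in the synthetic tetraploid made from these species stayed at the level of a mixture of their RNAs. They were chosen from the 61115 probe sets of the array in 2 steps. First, 50225 probe sets were kept because the mean of the 4 generations of the synthetic tetraploid AT2 lay within 0.5 log2 units of the parental mixture (Mix) in leaf and in young inflorescence (YI). These were then ranked by the smaller of the 2 tissues' AL minus TU differences, and the 150 highest became members. The differences between AL and TU and between AT2 and Mix therefore chose the members and are given as a description, without a test. The question put to the data was whether the natural tetraploid wheats, which the rule did not use, carry these transcripts too.

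The Affymetrix GeneChip Wheat Genome Array was hybridised with RNA of 9 genotypes from 2 tissues, with 3 arrays per genotype and tissue and 54 arrays in all. TTR13 is the domesticated tetraploid T. turgidum ssp. durum and TD is the wild tetraploid T. turgidum ssp. dicoccoides, both with the genome BBAA. AT2 is a single synthetic line with the genomes of both diploids, made by crossing AL (line TL05, mother) with TU (line TMU06, father) and doubling the chromosomes of the hybrid with colchicine, and its selfed generations S5, S6, S7 and S8 were sampled. Mix is the RNA of the diploids combined 1:1, AL carries the S genome and TU the A genome. Leaf is the second leaf of seedlings 3 weeks old and YI was taken at booting. Each array of a plant line is a pool of plants, and nothing read here says whether the 3 arrays of Mix came from separate pools, so p-values measure the spread between these arrays, which for Mix may be technical. The genotype field of the labels names AT2 for every array, and the genotypes were read from the sample titles.

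An allotetraploid carries the chromosomes of 2 species in 1 nucleus, and the copies of a gene that come from its parents are called homeologs. Gene expression is called additive where the tetraploid shows the level that mixing its parents would give, so a transcript made by 1 parent alone is diluted in the mixture and in an additive tetraploid. T. urartu is held to be the donor of the A genome of tetraploid wheat, while Ae. longissima belongs to the Sitopsis group of Aegilops and is only a relative of the plant that gave the B genome. Natural tetraploids may therefore carry a close, a diverged or no counterpart of an Ae. longissima transcript. The array reports the total signal of the copies that bind a probe set and was not designed to tell subgenomes apart, and whether its probes bind the RNA of each species alike was not tested.

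Levels are log2 units, so a difference of 1 is a 2-fold difference. The median level of an array lay between 4.69 and 4.92, levels below it could not be told apart from background, and a difference that reaches down to such a level is a lower bound and is written as at least so many units. A probe set is called detected in a group where it lay above the 65th percentile of its own array on all 3 arrays. Members had a median SD over 3 arrays of 0.09 in TTR13 YI, 0.08 in TD YI, 0.18 in TTR13 leaf and 0.09 in TD leaf. Replicate arrays correlated with r between 0.988 and 0.996 in YI and between 0.982 and 0.995 in leaf over all probe sets, and 5 of 6 probe sets of 4 leaf marker genes were lower in YI than in leaf in all 9 genotypes while 16 of 24 probe sets of 7 inflorescence marker genes were higher and 1 lower.

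The members were bright in Ae. longissima but were not all silent in T. urartu. Their median level was 9.18 in AL and 5.35 in TU in YI, and 8.83 in AL and 4.89 in TU in leaf. The AL minus TU difference had a median of 3.10 in YI (1.94 to 9.73) and of 3.24 in leaf (1.95 to 8.20), and for the members below the array median in TU these are lower bounds. In both tissues, 139 members were detected in AL and 31 in TU. In TU, 89 were detected in neither tissue, and of these 78 were detected in AL in both tissues and 88 in at least 1, so "specific" holds by detection in both tissues for 78 members and otherwise means a higher level in AL than in TU. The highest score was 7.97, of Ta.24916.2.S1_x_at. At the edge of the list, Ta.5711.2.S1_at (1.95) and Ta.13241.2.S1_at (1.94) were the last members and Ta.12970.1.S1_at and Ta.25841.1.A1_at (both 1.93) were the first probe sets left out.

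Mix lay about 1 unit below AL and AT2 somewhat closer to it. Mix minus AL had a median of -0.94 in YI and -0.85 in leaf, against the -1 that a pure dilution of a transcript made by AL alone gives, and the mean of the 4 generations of AT2 minus AL had -0.68 in YI and -0.81 in leaf. AT2 minus Mix, which the rule held within 0.5, had a median of 0.30 in YI, where 128 of the 150 members were above Mix, and of 0.03 in leaf, where 83 were. The median levels of S5, S6, S7 and S8 were 8.56, 8.49, 8.51 and 8.43 in YI, above the 8.18 of Mix, and 8.03, 8.07, 7.95 and 7.98 in leaf, where Mix had 7.91.

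**Figure D1:**
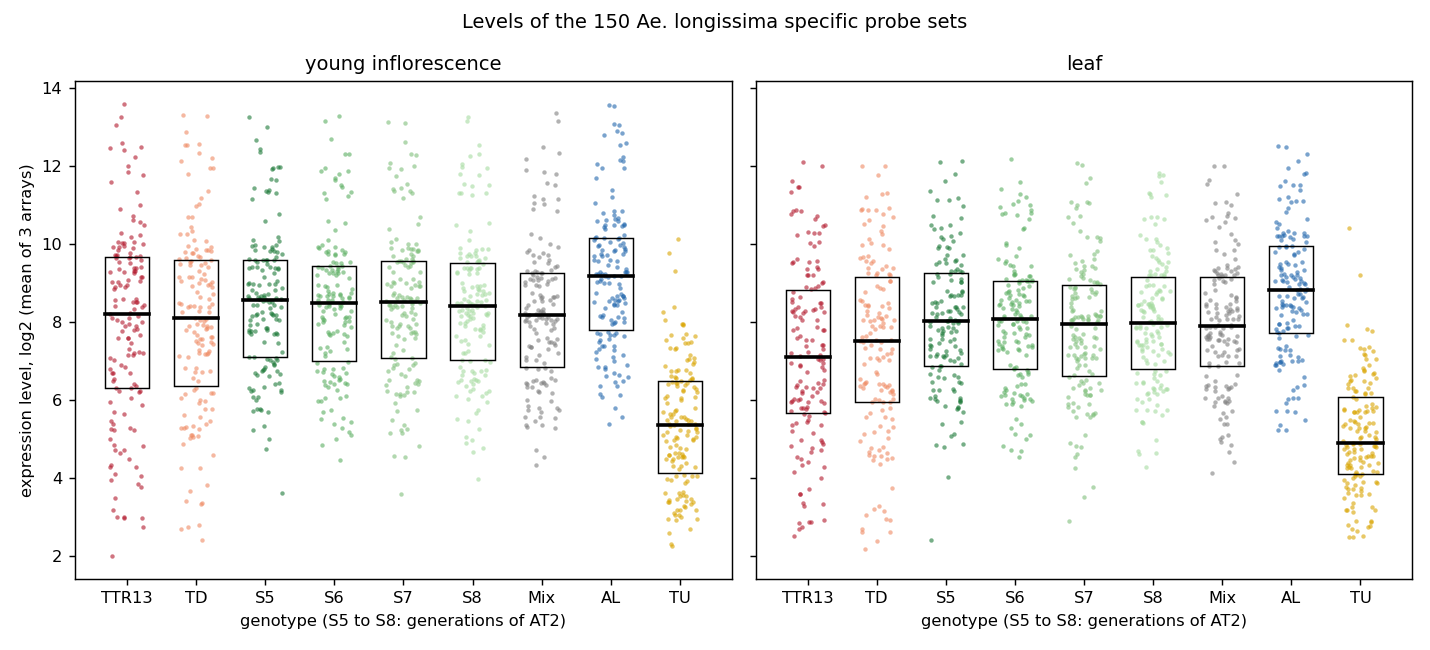
Level of each of the 150 members (points, mean of 3 arrays, log2) in the 9 genotypes, young inflorescence on the left and leaf on the right; the thick line is the median and the box spans the quartiles. The rule held the mean of the AT2 generations within 0.5 of Mix, and TTR13 and TD, which it did not use, spread from the level of T. urartu to above that of Ae. longissima.

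Most members were detected in the natural tetraploids, and in each group a minority of those tested lay within 0.5 log2 units of Mix. In YI, 118 of the 150 members (78.7%) were detected in TTR13, against 33.3% of all probe sets, and 121 (80.7%) in TD, against 33.2%. In leaf, 104 (69.3%) were detected in TTR13, against 32.2% of all probe sets, and 114 (76.0%) in TD, against 32.9%. These shares were above those of all probe sets in each of the 4 groups. The shares of all probe sets are capped by the detection cutoff itself, which is a percentile of each array. Members are bright in AL by the rule, so nothing is read from the gap between members and all probe sets. In TTR13 and TD together, 95 members were detected in both tissues and 19 in neither tissue. These combined counts were not made over all probe sets. In the list made with the same rule for transcripts high in T. urartu, 102 of 150 were detected in all 4 groups and 11 in none. The difference between these 2 lists was not tested. In such pooled tissue, fewer cells with a transcript, less RNA per cell and RNA that the probes bind less well cannot be told apart.

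The members spread widely around Mix in the natural tetraploids. TTR13 minus Mix ranged from -6.22 to 4.56 in YI and from -6.23 to 4.36 in leaf, and TD minus Mix from -8.28 to 3.98 in YI and from -6.50 to 4.06 in leaf. The low ends reach levels near or below the array median, where the true fall may be larger than the value given. The medians over all 150 were close to 0 (0.23 for TTR13 and 0.14 for TD in YI, -0.38 for TTR13 and -0.24 for TD in leaf), with members far above and far below. Of the members tested, 38 of 147 in TTR13 YI lay within 0.5 of Mix, against 61.5% of all probe sets tested, and 50 of 147 in TD YI, against 68.6%. The counts were 49 of 145 in TTR13 leaf, against 58.3%, and 43 of 145 in TD leaf, against 60.5%. In all 4 groups at once 16 of 143 members did so, against 36.0% of the probe sets tested in both tissues. The arrays of Mix also helped to choose the members, and by the rule all members differ strongly between the diploids, which most probe sets do not. A departure from Mix is thus more open to them, and nothing is read from these shares against their background.

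Each natural tetraploid was tested against Mix and against T. urartu with limma over all probe sets detected in at least 1 genotype of the tissue, which included 147 members of 25323 probe sets in YI and 145 of 25940 in leaf. Against Mix, 64 members were higher in TTR13 in YI (25.8% of all probe sets tested were) and 51 lower (20.9%). TD had 54 higher (16.1%) and 45 lower (20.9%) in YI. In leaf, 26 were higher in TTR13 (17.1%) and 65 lower (21.3%), and 36 were higher in TD (18.3%) and 56 lower (18.3%). The shares of the 150 members were 42.7% and 34.0% for TTR13 YI, 36.0% and 30.0% for TD YI, 17.3% and 43.3% for TTR13 leaf, and 24.0% and 37.3% for TD leaf. With the values as deposited, they were thus above the background in both directions in YI, and in leaf mainly below Mix. In TTR13 YI this depended on scaling. After median centring 48 were higher there (20.1% of all probe sets tested) and 53 lower (33.6%). Quantile normalization gave 55 higher (21.3%) and 53 lower (27.2%). The median difference of the tested members was 0.25 in TTR13 YI, 0.15 in TD YI, -0.37 in TTR13 leaf and -0.20 in TD leaf, against -0.02, -0.10, -0.13 and -0.10 over all probe sets tested in the same groups. With the further demand of at least a 2-fold change, 30 members were higher in YI in TTR13 (12.5% of all probe sets tested) and 30 in TD (9.38%). In YI 48 were lower in TTR13 (7.33%) and 34 in TD (5.23%). In leaf 18 were higher in TTR13 (11.2%) and 24 in TD (10.7%), and 54 were lower in TTR13 (7.83%) and 47 in TD (7.49%). TTR13 and TD were compared with the same Mix arrays, so these counts are not independent of each other. Mix also helped to choose the members and lay above T. urartu for all of them, by 0.89 or more in YI and 1.04 or more in leaf. A fall below Mix is more open to them than to most probe sets, so nothing is read from the lower shares against their background.

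Against T. urartu, whose low level chose the members, 114 members were higher in TTR13 (25.4% of all probe sets tested) and 11 lower (30.0%) in YI, and 124 were higher in TD (18.6%) and 7 lower (30.5%). In leaf, 104 were higher in TTR13 (20.5%) and 7 lower (26.2%), and 111 were higher in TD (20.6%) and 6 lower (22.9%). The TU arrays are shared by these comparisons and a high count was set up by the rule. Read together with the comparison against Mix, they sort the members. In TTR13 YI, 33 members were below Mix and not above T. urartu (20.4% of all probe sets tested), and 23 were in TD YI (20.3%). In leaf the numbers were 40 in TTR13 (20.5%) and 32 in TD (17.5%). Members above T. urartu but below Mix, an intermediate level, numbered 18 in TTR13 YI (0.513% of all probe sets tested), 22 in TD YI (0.612%), 25 in TTR13 leaf (0.79%) and 24 in TD leaf (0.759%). A level between T. urartu and Mix is open mainly to probe sets that are low in T. urartu, which the rule picked, so nothing is read from the intermediate class against its background.

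**Figure D2:**
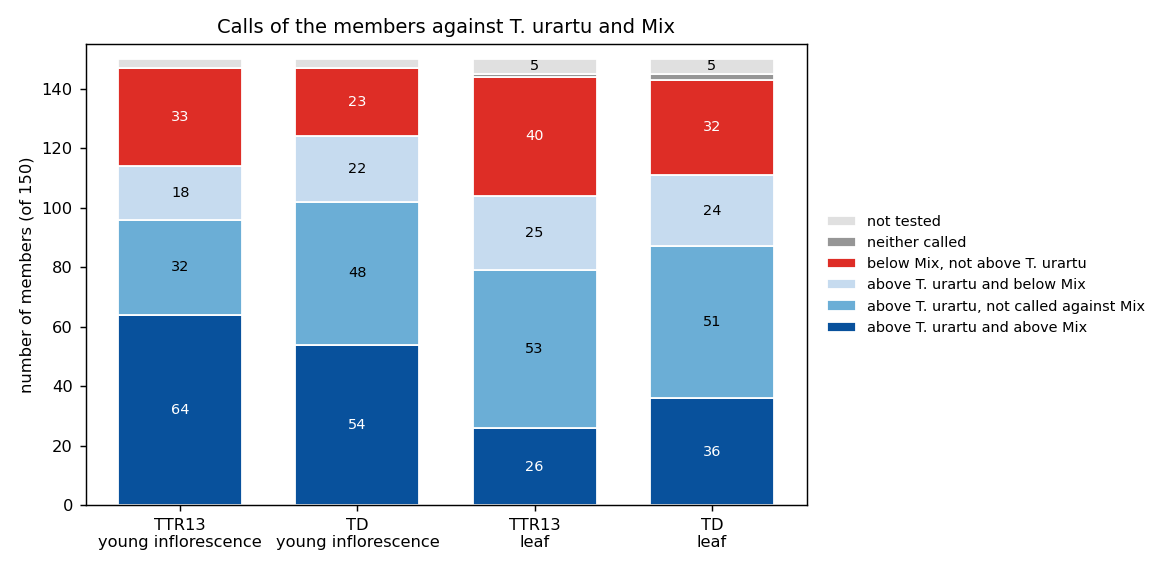
Number of members (of 150) by their limma calls against T. urartu and Mix, one bar for each natural tetraploid and tissue. Blue classes are above T. urartu (darkest also above Mix) and the red class, from 23 members in TD YI to 40 in TTR13 leaf, is below Mix and not above T. urartu.

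Of the 143 members tested in both tissues, 96 were above T. urartu in all 4 groups (9.34% of the 21357 probe sets tested in both tissues), and 70 were above T. urartu and in no group below Mix (8.79%), counts that the low level in T. urartu set up. At the other end, 17 members were below Mix and not above T. urartu in all 4 groups (3.54%). In both tissues, 28 members had this pattern in TTR13 (7.65%) and 19 in TD (7.35%). The 16 members within 0.5 of Mix in all 4 groups included Ta.2576.1.S1_at and Ta.6293.1.A1_at, which rank 8 and 16 by score.

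Among the members with the highest scores, some were kept at full level in both natural tetraploids. Ta.9601.1.S1_at (rank 3), a probe set with no gene name in the annotation used, had 12.43, 12.54 and 12.43 in TTR13 and 12.67, 12.52 and 12.56 in TD in YI, against 11.83, 11.88 and 11.98 in Mix, and 13.02, 12.96 and 12.77 in AL, against 2.72, 3.58 and 3.26 in TU. Both natural tetraploids lay above every Mix array and below every AL array. The difference from Mix was 0.57 ± 0.13 in TTR13 and 0.69 ± 0.13 in TD (SE, adjusted p = 0.00489 and 0.000814). In leaf, Ta.9601.1.S1_at had 9.53, 8.80 and 9.27 in TTR13 and 9.39, 9.35 and 9.39 in TD, against 9.07, 9.43 and 9.15 in Mix, with overlapping arrays and differences of -0.02 ± 0.19 and 0.15 ± 0.19 that were not called. Ta.28204.1.S1_at (rank 2) had 12.26, 12.23 and 12.21 in TTR13 and 12.20, 12.21 and 12.22 in TD in YI, against 11.88, 11.65 and 11.88 in Mix and at most 4.62 in TU, and no difference from Mix was called in any of the 4 groups. Each of these has a second probe set of its own transcript among the members, which differed from it by at most 0.03 (Ta.9601) and 0.26 (Ta.28204) in its difference from Mix. Unlike Ta.28204.1.S1_at, the second probe set Ta.28204.1.S1_x_at was called above Mix in YI. Its difference was 0.45 ± 0.09 in TTR13 and 0.65 ± 0.09 in TD (SE, adjusted p = 0.000968 and 8.95e-06).

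Ta.2576.1.S1_at (rank 8) stayed close to Mix throughout. Its mean was 12.61 in TTR13 and 12.34 in TD in YI, against 12.20 in Mix, and 11.62 in TTR13 and 11.32 in TD in leaf, against 11.65 in Mix. The TTR13 difference in YI, 0.41 ± 0.08 (SE, adjusted p = 0.000621), was the only call of the 4, and with the mean of AT2 in place of Mix it was -0.04. The other probe set of its cluster, Ta.2576.2.S1_at, was bright in both diploids (13.24 in AL and 13.13 in TU in YI). Ta.6293.1.A1_at, paired by the annotation with the gene LOC780661, had 10.59, 10.59 and 10.68 in TTR13 and 10.21, 10.30 and 10.27 in TD in YI, against 10.10, 10.18 and 10.20 in Mix. In leaf it had 8.0, 7.74 and 7.90 in TTR13 and 8.31, 8.26 and 8.31 in TD, against 8.38, 8.35 and 8.33 in Mix. TTR13 was above Mix by 0.46 ± 0.08 in YI (adjusted p = 0.000581) and fell by 0.47 ± 0.12 relative to Mix in leaf (SE, adjusted p = 0.0155), while the differences of TD from Mix were not called.

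The other members closest to Mix over both tissues showed the same crossing between tissues or none. Ta.28434.1.S1_x_at had 13.19, 13.31 and 13.29 in TTR13 and 13.25, 13.33 and 13.33 in TD, against 13.27, 13.10 and 13.14 in Mix in YI, and no difference from Mix was called in any of the 4 groups. It also had signal in T. urartu, with 9.52, 9.78 and 10.01 in YI. Ta.13932.1.A1_at and Ta.2984.1.S1_at were above Mix in TTR13 in YI, by 0.64 ± 0.11 and 0.42 ± 0.12 (SE, adjusted p = 0.000255 and 0.0487), and had TTR13 minus Mix differences of -0.59 ± 0.15 and -0.74 ± 0.18 in leaf (adjusted p = 0.0272 and 0.0121). In TD neither was called against Mix in either tissue. These members lay near Mix in the mean over tissues and not in each tissue of TTR13.

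The member furthest above Mix, Ta.4686.1.S1_at, was far brighter in the natural tetraploids than in either diploid. Ta.4686.1.S1_at had 10.86, 10.93 and 10.89 in TTR13 and 10.24, 10.26 and 10.31 in TD in YI, against 6.31, 5.89 and 6.79 in Mix, 6.75, 6.67 and 6.52 in AL and 3.37, 3.34 and 3.27 in TU. It was above Mix by 4.56 ± 0.14 in TTR13 and by 3.94 ± 0.14 in TD (SE, adjusted p = 9.66e-18 and 2.44e-16), and no array of a natural tetraploid overlapped with one of AL or Mix. In leaf the differences were 4.36 ± 0.19 and 4.06 ± 0.19. TaAffx.110394.1.S1_at was above Mix by 3.90 ± 0.16 in TTR13 and 3.98 ± 0.16 in TD in YI, and by 2.90 ± 0.14 in TTR13 and 3.83 ± 0.14 in TD in leaf. Ta.28675.1.A1_s_at was above Mix by 2.00 ± 0.18 in TTR13 and 2.12 ± 0.18 in TD in YI, and by 2.99 ± 0.19 and 2.38 ± 0.19 in leaf. In all 4 groups 19 members were above Mix and T. urartu (6.21% of the probe sets tested in both tissues), with a median level of 9.59 in TTR13, 9.31 in TD, 7.21 in Mix, 8.13 in AL and 5.26 in TU in YI.

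The 17 members below Mix and not above T. urartu in all 4 groups had a median level in YI of 5.28 in TTR13 and 5.78 in TD, against 8.14 in Mix and 5.74 in TU. Their means in YI ran from 2.96 to 7.23 in TTR13 and from 2.68 to 7.94 in TD, against 5.80 to 11.57 in Mix, so some still had signal. Ta.10389.1.S1_at had 5.30, 5.43 and 5.05 in TTR13 and 5.17, 5.23 and 5.49 in TD in YI, against 9.31, 9.50 and 9.46 in Mix, 10.60, 10.69 and 10.66 in AL and 5.25, 5.22 and 5.11 in TU. The natural tetraploids overlapped with T. urartu and the difference from Mix was -4.16 ± 0.13 in TTR13 and -4.13 ± 0.13 in TD (SE, adjusted p = 2.11e-17 and 4.3e-17). Ta.7259.3.S1_x_at had 3.25, 2.78 and 2.86 in TTR13 and 2.95, 2.64 and 2.45 in TD in YI, against 7.55, 7.40 and 7.55 in Mix, so it fell by at least 4.54 in TTR13 and fell by at least 4.82 in TD, to levels below the array median.

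Some members that were not detected in the natural tetraploids had a detected probe set beside them in the same transcript cluster. A cluster is the group of sequences that share a number in the probe set name, and the 150 members belong to 134 clusters. Of the 19 members detected in no natural tetraploid group, 15 were detected in Mix in at least 1 tissue. These 15 belong to 14 clusters, of which 11 have other probe sets on the array that are not members and 6 have one that was detected in all 4 groups and in Mix in both tissues. How often other clusters of the array hold such a probe set was not counted. In cluster Ta.10389, whose member lay between 4.93 and 5.29 in group means of the natural tetraploids, Ta.10389.2.S1_at was higher there than in Mix, with 8.89 in TTR13 and 8.75 in TD, against 5.66 in Mix and 5.85 in AL in YI. Ta.10389.3.A1_at of the same cluster had 9.41 in TTR13 and 9.72 in TD, against 9.75 in Mix, 7.48 in AL and 10.15 in TU.

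Cluster Ta.24916, which gave the highest score, held both patterns. Ta.24916.2.S1_at had 4.85, 4.57 and 4.50 in TTR13 and 5.18, 5.34 and 5.44 in TD in YI, against 10.92, 10.81 and 10.86 in Mix, and the difference from Mix was -6.22 ± 0.16 in TTR13 and -5.54 ± 0.16 in TD (SE, adjusted p = 4.75e-19 and 6.14e-18), with the TTR13 mean below the array median and its difference therefore a lower bound. Ta.24916.2.S1_x_at, built on the same sequence by its name, had differences of -5.25 ± 0.18 in TTR13 and -4.85 ± 0.18 in TD. The third member, Ta.24916.3.S1_x_at, was at 11.82, 11.73 and 11.79 in TTR13 and 11.92, 11.98 and 11.97 in TD, against 9.68, 9.26 and 9.72 in Mix and 9.82, 10.33 and 10.05 in AL, and was 2.22 ± 0.12 (TTR13) and 2.40 ± 0.12 (TD) above Mix. Another probe set, Ta.24916.1.S1_at, which is not a member, had 6.28 in TTR13 and 6.74 in TD in YI but 2.70 in Mix, 3.07 in AL and 2.58 in TU, all below the array median. Leaf gave the same directions for the 4 probe sets. Their levels cannot be compared with each other, since probe sets differ in how they bind.

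Of the 14 clusters with more than 1 member, 10 had members within 1 log2 unit of each other in their difference from Mix in all 4 groups. The exceptions were Ta.24916 (gap of up to 9.11), Ta.5532 (3.33), Ta.1868 (2.45) and Ta.9354 (1.83). In cluster Ta.5532, Ta.5532.2.A1_s_at was above T. urartu in all 4 groups, but above Mix only in YI and below Mix in leaf in both natural tetraploids. Ta.5532.1.A1_x_at was below Mix and not above T. urartu in all 4 groups. Members that share a cluster may share a gene, and with 1 member per cluster or without the probe sets that share probes with other genes each share of members called stayed within 1.5 times (alternatives chosen after seeing the data).

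**Figure D3:**
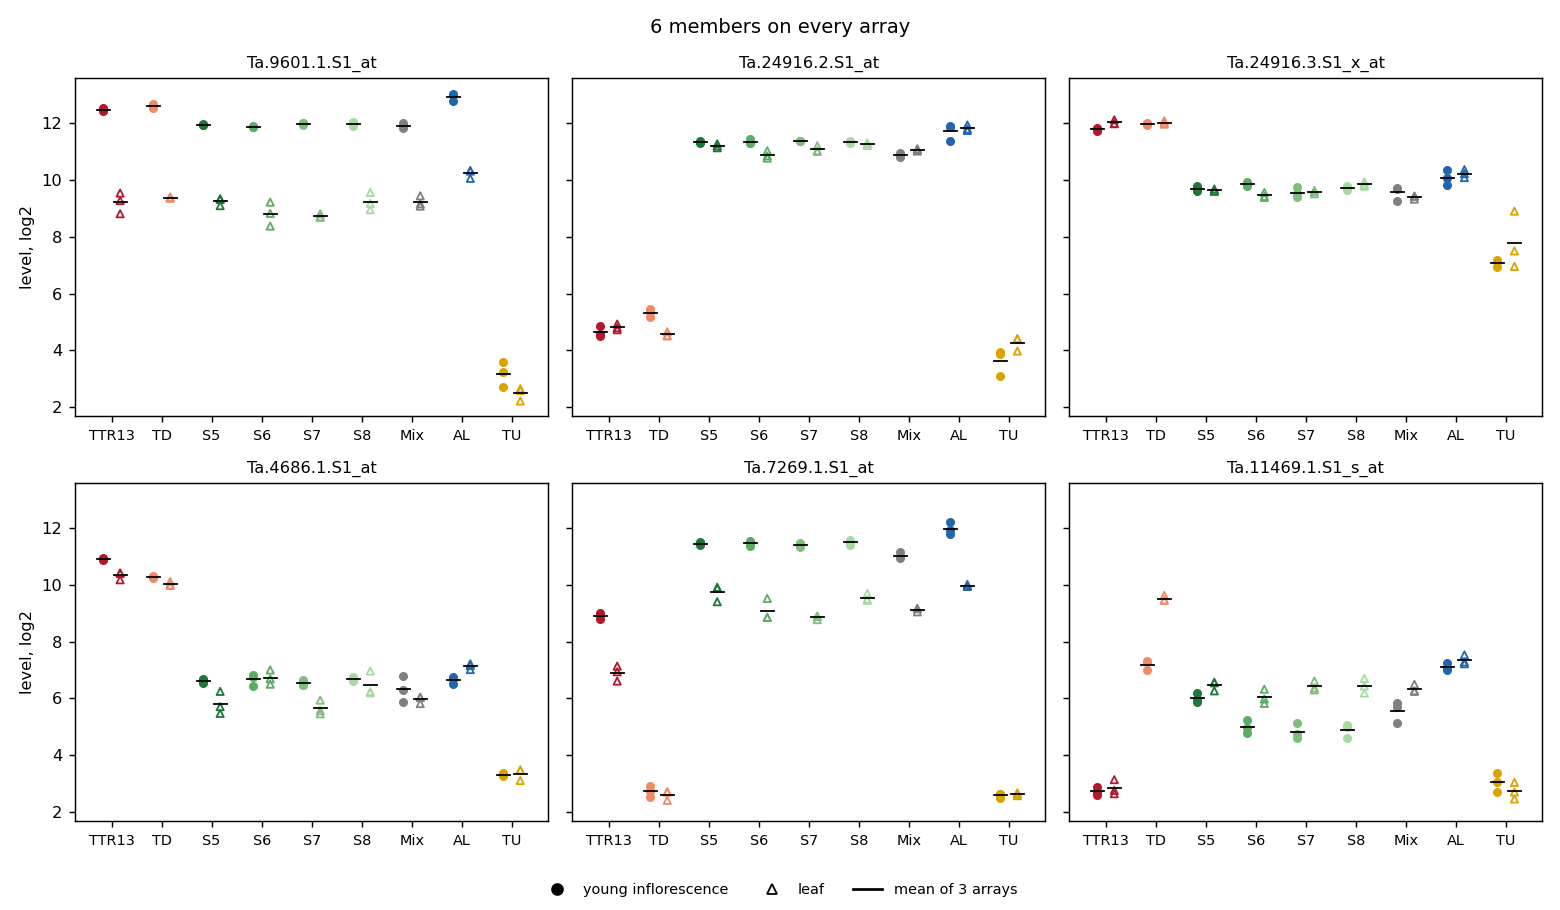
Level (log2) of 6 members on each array, young inflorescence as filled circles and leaf as open triangles, with a black line at the mean of 3 arrays. Ta.9601.1.S1_at is kept by both natural tetraploids, Ta.24916.2.S1_at fell in both while Ta.24916.3.S1_x_at and Ta.4686.1.S1_at are above Mix in both, Ta.7269.1.S1_at lies below the array median in TD and Ta.11469.1.S1_s_at in TTR13.

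The domesticated and the wild tetraploid differed for a minority of members, some of them strongly. In YI, 24 members were higher in TTR13 than in TD (22.2% of all probe sets tested) and 23 lower (11.1%), or 16.0% and 15.3% of the list. In leaf, 9 were higher (9.41%) and 21 lower (12.5%), or 6.0% and 14%. These shares were near the background except for fewer higher members than background in both tissues and slightly more lower members in YI. The split in YI depended on scaling, since 14 were higher (14.7% of all probe sets tested) and 33 lower (18.8%) after centring each array on its median and 16 higher (15.8%) and 26 lower (15.0%) after quantile normalization. Of the 143 members tested in both tissues, 5 were higher in both (4.3% of all probe sets tested in both), 11 lower in both (2.69%) and 86 called in neither (56.9%). The 3 arrays of TTR13 and the 3 of TD did not overlap for 102 members in YI (44.4% of all probe sets) and for 79 in leaf (33.2%). The median TTR13 minus TD difference of the tested members was 0.01 in YI and -0.12 in leaf, against 0.07 and -0.04 over all probe sets tested.

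**Figure D4:**
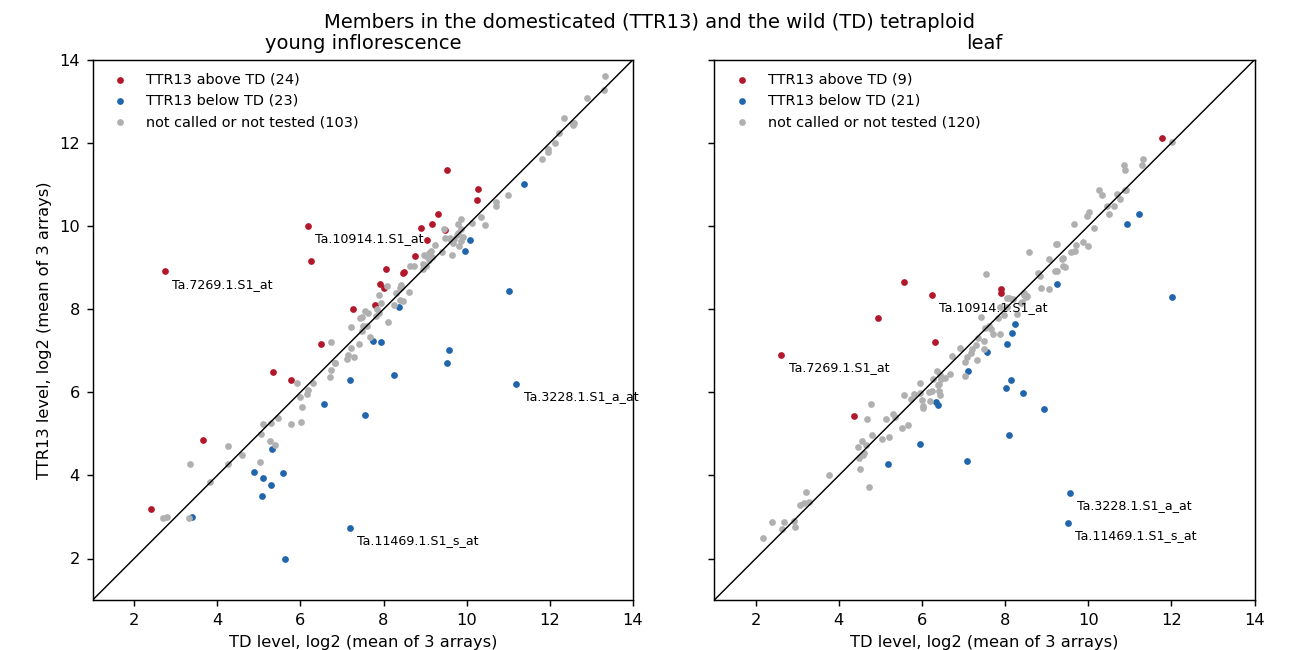
Level of each member in TTR13 (vertical axis) against TD (horizontal axis), both log2 means of 3 arrays, with young inflorescence on the left, leaf on the right and the line of equal levels. Most points lie along the line, with 24 called above and 23 below it in young inflorescence and 9 above and 21 below in leaf.

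Ta.7269.1.S1_at (rank 5) was detected in TTR13 and not in TD. In YI it had 8.99, 8.79 and 8.94 in TTR13, against 2.92, 2.76 and 2.55 in TD, with 11.16, 10.93 and 10.98 in Mix and 2.51, 2.65 and 2.63 in TU. In leaf it had 7.14, 6.61 and 6.94 in TTR13, against 2.72, 2.42 and 2.71 in TD. The TD arrays overlapped with T. urartu, and TTR13 was higher than TD by at least 6.16 ± 0.10 in YI and at least 4.28 ± 0.16 in leaf (SE, adjusted p = 3.49e-22 and 6.54e-15). TTR13 minus Mix was itself -2.12 ± 0.10 in YI and -2.23 ± 0.16 in leaf. By the calls it was below Mix and not above T. urartu in TD in both tissues, and above T. urartu but below Mix in TTR13. No member had this pattern in TD while being above T. urartu and not below Mix in TTR13 in both tissues (0 of 143, and 0.183% of the probe sets tested in both).

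With the genotypes exchanged, 4 members were below Mix and not above T. urartu in TTR13 in both tissues but above T. urartu and not below Mix in TD (0.0983% of the probe sets tested in both). Ta.11469.1.S1_s_at had 2.65, 3.15 and 2.77 in TTR13, against 9.45, 9.62 and 9.46 in TD in leaf, where Mix had 6.50, 6.27 and 6.25 and AL 7.53, 7.22 and 7.28. TTR13 was at the level of T. urartu (2.47, 3.05 and 2.71), and TD was above every AL array. Relative to TD, TTR13 fell by at least 6.66 ± 0.17 in leaf and fell by at least 4.46 ± 0.18 in YI (SE, adjusted p = 7.85e-18 and 4.16e-15). Its suffix, _s_at, marks probes that match more than 1 gene.

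Ta.3228.1.S1_a_at had 3.30, 3.83 and 3.62 in TTR13, against 9.66, 9.51 and 9.52 in TD in leaf, where it fell by at least 5.98 ± 0.16, and 6.25, 6.12 and 6.24 in TTR13, against 11.17, 11.20 and 11.22 in TD in YI, a difference of -4.99 ± 0.13. In both tissues TD was above every array of AL and TTR13 below every array of Mix. Ta.30793.3.S1_x_at had a TTR13 minus TD difference of -3.73 ± 0.18 in leaf and -2.59 ± 0.24 in YI, with a mean of 8.28 in TTR13, 12.01 in TD and 7.93 in TU in leaf. Ta.4154.2.A1_at had -2.45 ± 0.09 in leaf and -0.85 ± 0.12 in YI. Ta.13192.1.S1_x_at (rank 6), kept in part, had 6.55, 6.62 and 6.91 in TTR13, against 9.61, 9.39 and 9.54 in TD in YI, where TU was between 3.22 and 3.75, and the difference was -2.82 ± 0.11 (adjusted p = 1.22e-15).

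Ta.10914.1.S1_at was higher in TTR13 in both tissues. It had 10.07, 9.91 and 10.04 in TTR13, against 6.17, 6.34 and 6.06 in TD in YI, with 9.11, 9.22 and 9.14 in Mix, and 8.36, 8.29 and 8.36 in TTR13, against 6.16, 6.18 and 6.36 in TD in leaf. The difference was 3.82 ± 0.29 in YI and 2.11 ± 0.17 in leaf (SE, adjusted p = 1.18e-09 and 1.39e-08). TTR13 was not called against Mix in either tissue, while TD minus Mix was -2.97 ± 0.29 in YI and -1.84 ± 0.17 in leaf. Ta.8689.1.A1_at had 7.74, 7.66 and 7.96 in TTR13, against 5.18, 5.02 and 4.61 in TD in leaf, and Ta.9330.1.S1_at had 9.03, 9.27 and 9.14 in TTR13, against 6.78, 6.07 and 5.92 in TD in YI, with 8.09, 8.14 and 7.93 in Mix. In these too the arrays of TTR13 and TD did not overlap. Ta.9502.1.A1_x_at differed in YI alone by the calls, with 11.17, 11.50 and 11.37 in TTR13, against 9.76, 9.31 and 9.53 in TD and 9.08, 9.11 and 9.14 in Mix, while in leaf both natural tetraploids were above Mix, by 1.51 ± 0.15 (TTR13) and 1.64 ± 0.15 (TD).

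For 1 member the study's cDNA pyrosequencing assay, which reads the share of each homeolog, gives sequence, and it is shown because it is the only stretch of a member's transcript in the files used here. For Ta.23196.2.A1_at (rank 62) the primers are printed 5′ to 3′, with the 15 bases shared by the forward and the sequencing primer in capitals.
forward primer: cccacCGATCTCTTGAAACA
sequencing primer: CGATCTCTTGAAACAcag
reverse primer: tcagctcctctttttagcacagac
Ta.23196.2.A1_at had 10.01, 9.84 and 9.98 in TTR13 and 8.84, 8.93 and 8.93 in TD, against 8.64, 8.65 and 8.62 in Mix in YI, and TTR13 did not overlap with either. It was higher in TTR13 than in TD by 1.05 ± 0.16 in YI (SE, adjusted p = 5.93e-05), while in leaf the difference was -0.20 ± 0.14 and was not called.

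Members tended to be higher in YI than in leaf in the natural tetraploids. In TTR13, 89 members were higher in YI (41.9% of the 29906 probe sets tested) and 26 lower (32.4%), and in TD 82 were higher (37.9%) and 35 lower (29.8%). These are 59.3% and 17.3% of the list in TTR13 and 54.7% and 23.3% in TD, so more were higher and fewer lower than in the background. In both genotypes 75 were higher (33.2%) and 24 lower (24.2%). The median YI minus leaf difference of the members was 0.86 in TTR13 and 0.73 in TD, and it was also above 0 in AL (0.50), Mix (0.47) and TU (0.13).

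Ta.7378.30.S1_x_at had the largest YI minus leaf difference of the 150. It had 13.58, 13.64 and 13.61 in YI, against 5.00, 4.73 and 4.92 in leaf in TTR13, and 13.32, 13.35 and 13.30 in YI, against 4.77, 5.40 and 4.92 in leaf in TD. The difference was 8.73 ± 0.16 in TTR13 and 8.30 ± 0.16 in TD (SE, adjusted p = 1.96e-36 and 1.13e-35). In AL, YI had a mean of 13.57 and leaf of 7.86. The member itself has no gene in the annotation, but 7 of the 37 other probe sets of its cluster are annotated as wcH2B-8, a histone H2B, one of the proteins around which DNA is wound, and 17 of the 37 were detected in T. urartu in both tissues.

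Ta.14405.1.S1_s_at had 8.22, 8.15 and 8.23 in YI, against 4.53, 4.05 and 4.68 in leaf in TTR13, and 8.45, 8.49 and 8.48 in YI, against 4.41, 4.57 and 4.46 in leaf in TD. It did not differ from Mix by the calls in YI, but in leaf, where Mix had 6.32, 6.57 and 6.55, both natural tetraploids were below the array median, as was T. urartu (3.90, 3.87 and 4.27). Leaf levels of TTR13 and TD below Mix were likewise seen for Ta.7378.30.S1_x_at, at 6.79, 7.15 and 6.93 in Mix. TaAffx.37007.1.S1_at was at least 4.37 ± 0.25 higher in YI than in leaf in TTR13 and at least 4.26 ± 0.25 higher in TD.

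Ta.27765.6.S1_x_at, paired with LOC606340, was 3.50 ± 0.16 higher in YI than in leaf in TTR13 and 3.68 ± 0.16 higher in TD. In the other direction, Ta.7339.1.S1_at, paired with LOC780636, had 4.12, 3.98 and 4.18 in YI, against 9.77, 9.34 and 9.46 in leaf in TTR13, and 4.24, 5.26 and 5.13 in YI, against 9.89, 10.08 and 9.99 in leaf in TD. YI fell by at least 5.43 ± 0.22 relative to leaf in TTR13, and in TD the difference was -5.11 ± 0.22. Ta.7870.1.S1_at and Ta.9419.1.S1_s_at were also lower in YI, with differences of -3.15 ± 0.20 and -3.36 ± 0.20 in TTR13 and of -3.33 ± 0.20 and -3.03 ± 0.20 in TD.

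The tissue difference itself depended on the genotype for 36 members. In the test of the interaction, 26 had a larger YI minus leaf difference in TTR13 than in TD (18.3% of all probe sets tested) and 10 a smaller one (8.99%), or 17.3% and 6.67% of the list, which is close to the background. After median centring the counts were 20 (13.7%) and 13 (11.9%), and after quantile normalization 19 (13.5%) and 13 (10.2%). Ta.9502.1.A1_x_at was higher in YI than in leaf by 0.86 ± 0.21 in TTR13 (SE, adjusted p = 0.00273), against -1.09 ± 0.21 in TD (adjusted p = 9.55e-05). TaAffx.24874.1.S1_at had 2.00, 1.73 and 2.25 in YI, against 4.95, 4.37 and 4.30 in leaf in TTR13, and 5.31, 5.93 and 5.64 in YI, against 4.60, 4.54 and 4.64 in leaf in TD. Of its 12 values only those of TD YI lay clearly above the array median.

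The mean of AT2 was held near Mix by the rule, but single generations could still differ. In leaf 41 members differed among S5, S6, S7 and S8 (35.3% of all probe sets tested), and in YI 10 did (9.61%), or 27.3% and 6.67% of the list. The same AT2 arrays chose the members, so nothing is read from these shares against the background. Among the 41, the highest generation was S5 for 18, S6 for 16, S7 for 4 and S8 for 3, and the spread between the highest and lowest generation had a median of 0.86 (0.40 to 3.04), with lower bounds among them where a generation lay below the array median. Among the 10 in YI, S5 was highest for 8. The order of the generations was not counted over all probe sets called, so it is not read as a trait of the members. The YI count was 6 without the second array of S5. Each generation is a separate set of pools, so generation and growing of the plants cannot be told apart.

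TaAffx.24874.1.S1_at alternated in YI, with 4.13, 3.18 and 3.57 in S5, 5.98, 6.38 and 5.82 in S6, 4.52, 4.56 and 4.61 in S7 and 6.23, 5.74 and 6.30 in S8, beside 5.24, 5.74 and 5.12 in Mix. No array of S5 or S7 reached those of S6 or S8 (spread of at least 2.47, since S5 lies below the array median, adjusted p = 3.5e-07). In leaf the same alternation was seen at levels near or below the array median (2.03 to 2.71 in S5, 4.61 to 5.26 in S6, 2.10 to 3.65 in S7 and 4.16 to 4.98 in S8), where the member was not tested. Ta.11928.1.A1_at in leaf had 7.72, 7.85 and 7.68 in S5, 10.87, 10.80 and 10.71 in S6, 8.54, 9.42 and 8.99 in S7 and 7.59, 8.78 and 9.52 in S8, against 9.49, 9.43 and 9.11 in Mix (spread of 3.04, adjusted p = 2.66e-06), so S5 was close to T. urartu (7.46, 7.52 and 7.67) and S6 above AL (10.50, 10.26 and 9.98). Ta.10672.1.S1_at in leaf was lowest in S7 (3.98, 3.76 and 3.55) and highest in S5 (6.53, 6.30 and 7.20), with a spread of at least 2.92, S7 being below the array median.

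**Figure D5:**
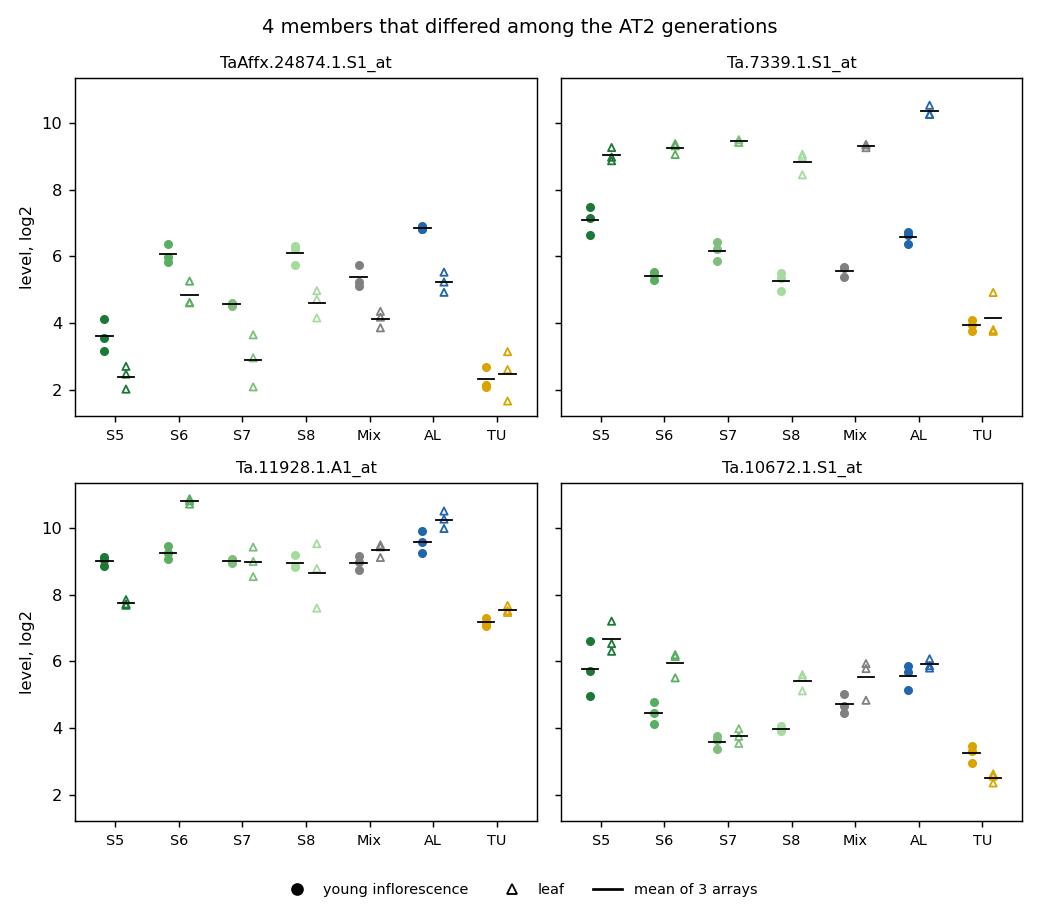
Level (log2) of 4 members on each array in generations S5 to S8 of AT2, Mix, Ae. longissima and T. urartu, young inflorescence as filled circles and leaf as open triangles, with a black line at the mean. TaAffx.24874.1.S1_at is low in S5 and S7 and high in S6 and S8, and Ta.11928.1.A1_at in leaf runs from close to T. urartu in S5 to above Ae. longissima in S6.

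The make-up of the list differed from that of the array. Probe sets with the suffix _x_at, in which some probes also match other sequences, made up 24.0% of the members, against 11.1% of all probe sets, and _s_at 8.67%, against 4.28%. Names with the prefix TaAffx made up 12.7%, against 48.6%. Of the 134 clusters of the members, 85 have other probe sets on the array, and in 50 of them another probe set was detected in T. urartu in both tissues. In some of those clusters a member was itself detected in T. urartu in both tissues. How many of the 50 held a member with no detected signal in T. urartu was not counted. The share of clusters with another probe set detected in T. urartu was not counted over the whole array. The annotation used pairs 1273 probe sets with a gene. Of the members it pairs 5, all with a locus number in place of a name (the others are Ta.23202.1.S1_x_at with LOC606341 and Ta.7272.3.S1_x_at with LOC543167). None of the members was among the annotated probe sets of 6 lists (29 organelle encoded, 12 storage protein, 6 defence, 18 histone, 6 translation and 12 redox or detoxification probe sets), and no group of functions can be described for the list.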

How the data were processed

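The deposited values are log2 expression values made by the authors with the robust multichip average, and MAS5 and limma are named in the labels with no version. Their MAS5 present calls were not used here, and the 65th percentile of each array took their place. All 54 arrays were used and 0 columns went unmatched. Members were found with pandas 2.3.3. Tests were made with limma 3.58.1 in R 4.3.3 (lmFit, eBayes) over the 27 arrays of a tissue, or all 54 for tissue differences, with Benjamini-Yekutieli adjustment over all probe sets tested and calls at an adjusted p under 0.05. The fits were checked on simulated data, and the number of arrays limits their precision.

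The members and lists were chosen with earlier results of these data known. The members named were the 8 with the highest score and those at its edge; the 4 closest to Mix and the 4 furthest from it among those detected in the natural tetraploids; the 4 lowest relative to Mix; the 4 largest called TTR13 minus TD differences per tissue and direction; the 3 largest called YI minus leaf differences per genotype and direction; and the 3 largest called F among the generations per tissue. Ta.4154.2.A1_at, Ta.23196.2.A1_at, the members of cluster Ta.5532, the members paired with a locus number and all probe sets that are not members, apart from those at the edge, were named after their values were seen. The alternatives tried were other adjustments, filters, scalings, references, list sizes, a replicate block, a minimum fold and leaving out single arrays. Those added after seeing the data were 1 member per cluster, only members without shared probes and the 2-fold minimum for TTR13 minus TD.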

Additional observations from a re-analysis of the deposited data

Results flagged for a closer look

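The difference between young inflorescence and leaf differed between TTR13 and TD in the limma test of the interaction for 26 members in which it was larger in TTR13 and 10 in which it was smaller. These are 17.3% and 6.67% of the list, close to the 18.3% and 8.99% of all probe sets tested, so the counts are not particular to the members. Among the members named, it was smaller in TTR13 for TaAffx.24874.1.S1_at (-3.57), Ta.4783.1.S1_x_at (-3.45), Ta.8689.1.A1_at (-1.94), Ta.24916.2.S1_at (-0.93) and Ta.6932.1.S1_at (-0.93). It was larger in TTR13 for Ta.13932.1.A1_at (0.77), Ta.6293.1.A1_at (0.78), TaAffx.110394.1.S1_at (0.86), Ta.3228.1.S1_a_at (0.99), Ta.30793.3.S1_x_at (1.14), Ta.10914.1.S1_at (1.71), Ta.7269.1.S1_at (1.89), Ta.9502.1.A1_x_at (1.95), Ta.9330.1.S1_at (1.95) and Ta.11469.1.S1_s_at (2.20). These values are differences of differences in log2 units.

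For Ta.11469.1.S1_s_at, Ta.7269.1.S1_at and TaAffx.24874.1.S1_at the mean of one genotype lay below the array median in both tissues, and for other members, such as Ta.3228.1.S1_a_at in TTR13 leaf, in 1 tissue. The values above that rest on such a mean are not exact. Ta.4783.1.S1_x_at had uneven leaf arrays, with 6.30, 10.31 and 9.37 in TTR13 and 4.68, 6.42 and 5.62 in TD, and the SD of TTR13 in leaf (2.09) was the highest of any member and group. Ta.8689.1.A1_at had 7.74, 7.66 and 7.96 in TTR13, against 5.18, 5.02 and 4.61 in TD in leaf, and 8.90, 9.01 and 8.98 in TTR13, against 7.92, 8.12 and 8.10 in TD in young inflorescence.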

How the results depend on the processing

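Of 562 alternative values of the shares of members, 541 stayed within 1.5 times of the value reported. Those that moved were the following shares of the list. Benjamini-Hochberg adjustment gave 6.67% for TD below T. urartu in leaf, 9.33% and 25.3% for TTR13 above TD in leaf and YI, 48.0% and 15.3% for differences among S5 to S8 in leaf and YI, and 26.0% larger and 12.0% smaller tissue differences in TTR13. A minimum of 2-fold (for TTR13 minus TD added after seeing the data) gave 20.0% for TTR13 and 20.0% for TD above Mix in YI, 4.67% above and 8.0% below TD for TTR13 in YI and 3.33% above and 6.67% below in leaf. Fitting only the groups compared gave 16.0% for the generations in leaf and 4.0% and 2.67% for TTR13 and TD below T. urartu in YI, the 100 highest scores gave 2.0% for TD there, and median centring gave 9.33% for TTR13 above TD in YI. Members shared with the list chosen were 22.7% with AT2 held within 0.25 of Mix and 34.7% within 1, and 81.3% to 84.7% without 1 replicate number. Without 1 array, differences among S5 to S8 in YI ranged from 4.0% to 6.0% of the list, TTR13 above TD from 11.3% to 14% in YI and from 4.0% to 6.67% in leaf, and those among S5 to S8 in leaf from 20.0% to 28.0%. Of 3197 alternative values of 214 calls of the members named, 198 lost the call and 1 changed sign, which was TTR13 minus Mix of Ta.2576.1.S1_at in YI with the mean of AT2 in place of Mix (-0.037). The cause of these changes was not tested. Levels below the array median limit differences to lower bounds.

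In the pairs of groups examined, deviations of same-numbered arrays correlated with r from -0.11 to 0.10, so the replicate numbers did not pair those arrays. Mix was not examined against the diploids, and of the generations only S8 was examined against S5. With the replicate block 15.3% of the list was higher in TTR13 than in TD in YI and 5.33% and 24.7% differed among S5 to S8 in YI and leaf, and no share moved by more than 1.5 times.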
